A study of Homo sapiens with 4 samples.

Results

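CLDN1, KRT19, MUC1, MUC4, ITGA2, ITGB4, ITGB8 and LAMB3 encode surface, junction, filament and basement-membrane proteins of epithelial cells, and these 8 genes were followed in 2 human cell lines with and without a knockdown of ADAR, an RNA-editing enzyme that deaminates adenosines within double-stranded RNA to inosines. The genes were chosen by symbol, with their listed averages already known, from 2257 distinct genes named in at least 1 of 2 deposited tables. HepG2 (hepatocellular carcinoma) listed 7 of the 8 among 1409 genes, and K562 (erythroleukemia) listed 1 of the 8 among 942. The 4 groups, with 1 sample each, were HepG2 and K562 cells stably transfected with a plasmid for an siRNA against ADAR1, and the same lines with a plasmid for a scrambled siRNA. The labels say that several siRNAs were tried and the most effective kept, and they do not say whether the transfected cells were clones or pools. Each table holds genes past a 2-fold difference between knockdown and control, with the authors' average for each, so an absent gene is unlisted and not shown to be unaltered. With 1 sample per group no difference has a replicate check, and no SD, n or p-value is attached.

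In epithelia, claudins seal the space between neighbouring cells at tight junctions, keratin filaments give the cell its mechanical strength, and transmembrane mucins cover the free surface. Integrins are receptors made of an alpha and a beta chain that join the cell to the matrix below it, and laminins, trimers of an alpha, a beta and a gamma chain, are main components of that basement membrane. Hepatocytes carry claudins and a small set of keratins, whereas KRT19 in normal liver marks bile duct cells. K562 cells grow in suspension and are not epithelial.

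RefSeq promoter windows, each from 250 bases before to 50 after an annotated start on GRCh38.p14, were matched by symbol for 6 of the 8 genes: CLDN1, MUC1, MUC4, ITGA2, ITGB8 and LAMB3. The stretches below are shown for 4 genes higher in the HepG2 knockdown, to set their starting regions side by side. Each is the longest run, of at least 60 bases, within the 250 bases before the start that holds no exon of GENCODE release 29, written from 5′ to 3′ on the gene's strand. For CLDN1 that run is short, because exons of CLDN16 and of CLDN1 lie in the rest. Capitals mark GC boxes (GGGCGG on either strand), the TATA box (TATAAA) in MUC1 and an NF-kB consensus match in LAMB3.

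CLDN1, chr3:190322476-190322540, minus strand: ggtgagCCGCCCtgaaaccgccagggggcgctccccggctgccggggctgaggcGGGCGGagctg
ITGA2, chr5:52989102-52989325, plus strand: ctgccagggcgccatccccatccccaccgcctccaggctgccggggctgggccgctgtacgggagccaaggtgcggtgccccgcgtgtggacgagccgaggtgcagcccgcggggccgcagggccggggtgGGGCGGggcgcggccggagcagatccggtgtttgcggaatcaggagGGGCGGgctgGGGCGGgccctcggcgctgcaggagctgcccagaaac
MUC1, chr1:155192917-155193165, minus strand: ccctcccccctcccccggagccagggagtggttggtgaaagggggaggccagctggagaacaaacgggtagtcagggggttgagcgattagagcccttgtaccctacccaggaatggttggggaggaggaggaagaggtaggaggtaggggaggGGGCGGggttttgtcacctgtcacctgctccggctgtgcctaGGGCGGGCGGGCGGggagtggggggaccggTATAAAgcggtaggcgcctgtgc
LAMB3, chr1:209652467-209652675, minus strand: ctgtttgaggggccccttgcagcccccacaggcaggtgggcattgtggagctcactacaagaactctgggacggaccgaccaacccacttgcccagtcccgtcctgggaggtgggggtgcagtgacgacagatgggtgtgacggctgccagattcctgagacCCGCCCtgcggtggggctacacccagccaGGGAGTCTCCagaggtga

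GC boxes were the feature these windows had in common. In the first RefSeq window of each gene, a GC box was found in 6 of 6, with 4 matches in ITGA2, 4 in MUC1 (3 of them overlapping), 2 in CLDN1, 2 in ITGB8 and 1 each in LAMB3 and MUC4. Of all 35116 RefSeq promoter windows of the same length, 45.0% held at least 1. The 6 windows were 61.3% to 72.7% G and C, against a median of 58.7% over all windows. The gene that was lower in K562, MUC4, lies inside this range, at 62.0%. No AP-1 motif (TGANTCA) was found in these 6 windows, against 7.71% of all windows, and a further RefSeq start of LAMB3 held 1. The TATA box was found in MUC1 alone, 24 to 19 bases before the start, against 11.5% of all windows searched on both strands. The NF-kB consensus was found 3 times in LAMB3, with 2 of the matches overlapping, and in none of the other 5, against 5.91% of all windows. E-boxes (CANNTG) were in 3 of 6 and in 68.7% of all windows. These letters describe the windows and say nothing about factors bound there.

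The tables gave the following frame for the members. ADAR was lower in both knockdowns, at an average of 129 against 461 in HepG2 and 131 against 275 in K562, in the direction of the labels. That left 28.1% of the control value in HepG2 and 47.6% in K562, where the 2.09-fold difference lies near the 2-fold limit. The unit of the averages is not stated and depth is unknown, so averages of different genes are not read as an order of expression. In HepG2, 55.0% of listed genes were higher in the knockdown, 17.0% were higher by 3-fold or more and 8.94% by 4-fold or more. In K562, 61.8% were lower and 14.2% were lower by 3-fold or more. Folds below are ratios of averages after adding 1, the scale that the deposited folds also use.

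In HepG2 all 7 listed members were higher in the knockdown, and 6 of them were higher by 3-fold or more and 3 by 4-fold or more. Their median log2 fold was 1.97, with a range from 1.51 (LAMB3) to 3.16 (CLDN1), whereas the 775 listed genes that were higher had a median of 1.35. Because the members were picked from these same values, these counts, this median and the ranks given below describe the choice. They are not read against the shares or the median of all listed genes. A ratio without the added 1 ran from 2.86 to 9.01, so the pseudocount changed little for these genes. In bulk RNA, a change in the share of cells that carry a transcript and a change in RNA per cell cannot be told apart.

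**Figure D1:**
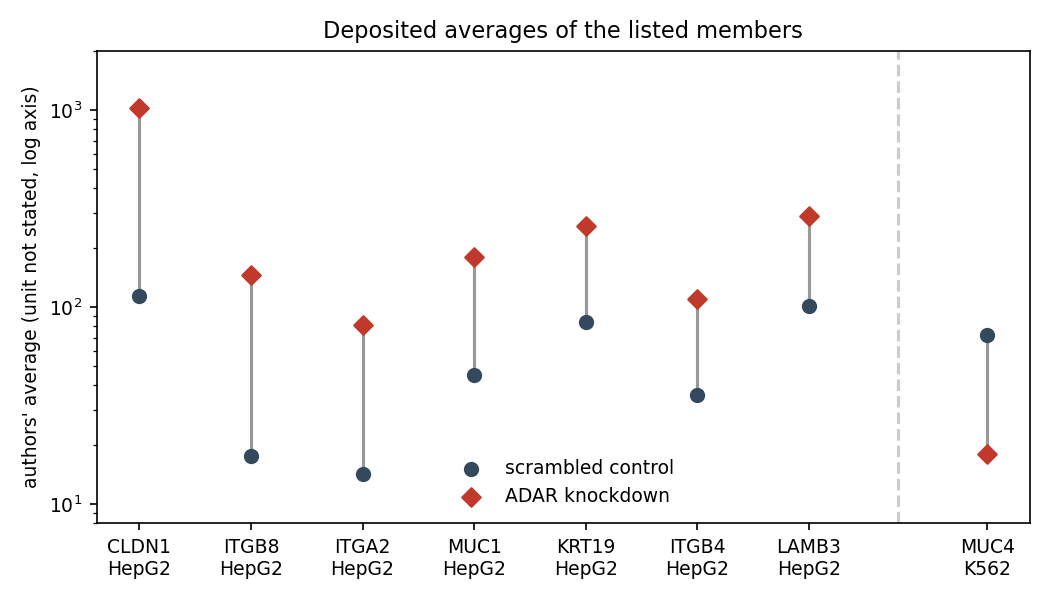
The authors' average in the scrambled control (dark circles) and in the ADAR knockdown (red diamonds) of each listed member, on a log axis in the authors' unstated unit, with a grey line joining the 2 values of a gene and no error bars because each value is a single average. The 7 genes of HepG2 lie higher in the knockdown, by 2.85-fold for LAMB3 to 8.94-fold for CLDN1, and MUC4 in K562 lies lower.

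CLDN1 (ENSG00000163347), the claudin that forms tight-junction strands in many epithelia and serves hepatitis C virus as an entry factor on hepatocytes, had an average of 1019.9 in the HepG2 knockdown and 113 in the control. That was 8.94-fold higher, or a log2 fold of 3.16, the rank of 19 among the 775 higher genes. CLDN1 was the steepest of the members, and 2.32% of the higher genes had a larger fold. No annotated gene overlaps it in GENCODE release 29.

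Other tight-junction genes went in both directions in HepG2, with smaller folds than CLDN1. Of 37 such genes, 5 were listed, 3 higher and 2 lower. A row with no symbol in the table carries the identifier ENSG00000253958, which the reference names CLDN23, a further claudin. Its control average of 35 stood beside 4 in the knockdown, a 7.20-fold difference in the opposite direction to CLDN1. CRB3, a polarity protein of the apical membrane, averaged 16 in the knockdown against 6.25, and MAGI1, a scaffold at cell junctions, averaged 29.5 against 13.5. When the larger average had to reach the lower quartile of the table, CRB3 was lost, and 2 higher and 2 lower genes remained. OCLN, TJP1 and the other claudins of the list were unlisted there. Among 26 genes of adherens junctions and desmosomes, MLLT4, which encodes the actin-binding protein afadin, was listed, at 91.7 against 38, 2.38-fold higher, while CDH1 and EPCAM were unlisted.

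KRT19 (ENSG00000171345), an acidic keratin of simple epithelia, averaged 258 in the HepG2 knockdown and 83.8 in the control. The difference was 3.05-fold, a log2 fold of 1.61. GENCODE holds 5 pseudogenes named after KRT19, and how reads shared with such copies were counted is not stated. Of 26 keratin genes, 3 were listed and all 3 were higher, or 2 of 2 without the picked KRT19, beside 55.0% of all listed genes. KRT81, a hair keratin, averaged 16.5 against 5, and KRT5, a keratin of basal cells, averaged 17.5 against 6. When the larger average had to reach the lower quartile of the table, 1 of these 3 keratins, KRT19, remained. KRT8, KRT18 and KRT7 were unlisted in HepG2. Outside the list, and picked with their values known, 2 rows with names of keratin pseudogenes went in opposite directions. The row named KRT16P2, whose identifier the reference gives to KRT16, averaged 18.5 against 6.07. It carries a symbol, so it was not matched to the keratin list by identifier. KRT42P averaged 2 against 26.8, 9.25-fold lower, a larger fold than that of any keratin of the list.

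MUC1 (ENSG00000185499), a transmembrane mucin of the apical surface, averaged 179 in the HepG2 knockdown and 45 in the control. It was 3.92-fold higher, a log2 fold of 1.97, which is the median of the 7 members. A further annotated gene on the same strand overlaps MUC1. Of 18 genes with mucin names, past or present, MCAM was the other listed in HepG2. It encodes an adhesion molecule of the immunoglobulin family once named as a mucin, and it averaged 159 against 437, which was 2.74-fold lower.

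The integrin genes gave the largest group of listed members. ITGB8 (ENSG00000105855), whose product pairs with that of ITGAV and binds latent TGF-beta, averaged 145 in the HepG2 knockdown and 17.5 in the control. The difference was 7.87-fold, a log2 fold of 2.98, with a rank of 25 among the higher genes. ITGA2 (ENSG00000164171), the alpha chain of a collagen receptor that it forms with the ITGB1 product, averaged 80.7 against 14.2. It was 5.39-fold higher, at rank 65. ITGB4 (ENSG00000132470), which pairs with the ITGA6 product in the laminin receptor of hemidesmosomes, averaged 110 against 35.7. It was 3.02-fold higher, at rank 234, and it overlaps GALK1, annotated on the opposite strand and unlisted in both tables. ITGA2 and ITGB8 also overlap unlisted genes on the opposite strand. Since counting by strand is not stated, reads from such pairs may not be separate.

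The partner chains of these integrins were listed in part. ITGA6, the partner of ITGB4, averaged 80.3 in the HepG2 knockdown against 37 in the control, 2.14-fold higher and so a smaller difference than that of ITGB4. ITGB1 and ITGAV, the partners of ITGA2 and ITGB8, were unlisted. Of 26 integrin genes, 6 were listed in HepG2, 5 higher and 1 lower, with a median log2 fold of 1.52. Of these, 3 were members picked with their values known, which sets much of the count and the median. Of the 3 others, 2 were higher and 1 lower, while 55.0% of all listed genes in HepG2 were higher. ITGA5, the alpha chain of the fibronectin receptor, averaged 210 against 76.6 and was 2.72-fold higher. ITGB5, a beta chain that also pairs with the ITGAV product, was the lower gene, at 144 against 289. Its difference of 2.00-fold lies at the edge of the table.

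LAMB3 (ENSG00000196878), the beta chain of the epithelial laminin to which the ITGB4 receptor binds, averaged 289 in the HepG2 knockdown and 101 in the control. It was 2.85-fold higher, a log2 fold of 1.51, the smallest of the 7. LAMA3, which encodes the alpha chain of the same trimer, was unlisted. Of 12 laminin genes, LAMA1, the alpha chain of an embryonic-type laminin, was the other listed, at 44.8 against 107, 2.37-fold lower. None of 22 further genes of basement membranes and hemidesmosomes, among them COL17A1, PLEC and CD151, was listed in either table.

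**Figure D2:**
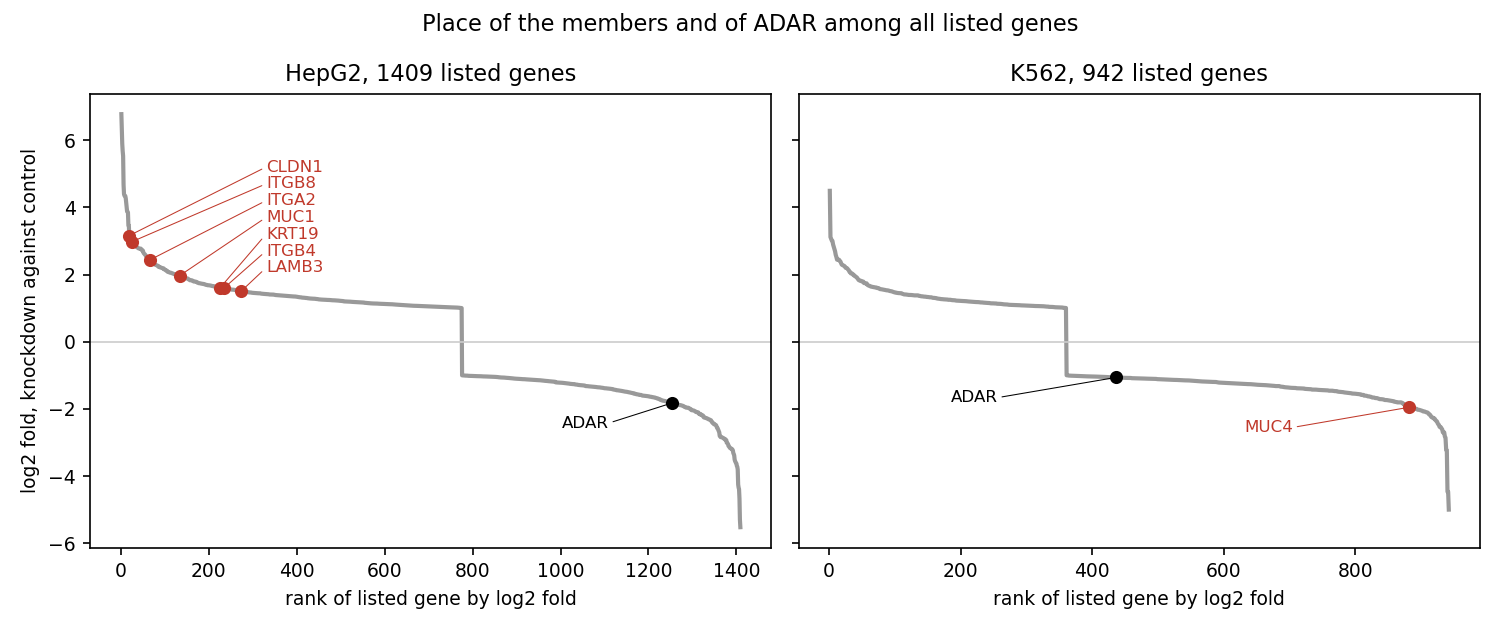
Log2 fold of every listed gene in order from highest to lowest (grey line; horizontal axis, rank; vertical axis, log2 fold of knockdown against control), in HepG2 and in K562, with the listed members in red and ADAR in black. The 7 members in HepG2 lie between rank 19 (CLDN1) and rank 274 (LAMB3) of 775 higher genes, and the step at the middle is the 2-fold limit of the tables.

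In K562, MUC4 (ENSG00000145113), a very large transmembrane mucin that binds the receptor ERBB2, was the member listed. Its average was 18 in the knockdown and 72.5 in the control, which was 3.87-fold lower, a log2 fold of -1.95, and left 24.8% of the control value. It took rank 61 among the 582 lower genes, and 10.3% of them had a larger fold. The median among all lower genes was 2.44-fold. MUC4 was picked with its values known, so its rank and fold describe the choice and are not read against that median. The other 7 members were unlisted in K562, and MUC4 was unlisted in HepG2. No member therefore has values in both lines, and a difference between the lines was not tested.

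Each other junction, keratin and integrin gene of the lists that K562 listed was also lower in its knockdown. JAM3, a junctional adhesion molecule, averaged 2 against 27, and CLDN11, a claudin of myelin and testis, averaged 3.50 against 26.5. CLDN12 averaged 22.2 against 53.2 and KRT7, a keratin of ducts, 7 against 24.6. Of the integrins, ITGA6 averaged 6.75 against 20.5, ITGA2B, the alpha chain of the platelet fibrinogen receptor, 19.2 against 47.5, and ITGAM, an alpha chain of myeloid cells, 11.6 against 28.8. The control averages of these genes ran from 20.5 to 53.2, around the K562 median larger average of 32, and their precision is unknown. CLDN22, which was on no list and was named after its values were seen, was higher, at 57.5 against 27.5.

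Over all 8 lists of junction, filament, mucin, integrin and matrix genes, the listed genes went both ways in HepG2 and were lower in K562. Of 201 genes, 22 were listed in HepG2, 15 higher and 7 lower, with a median log2 fold of 1.24. That median includes the picked members and is not read against all listed genes. Without the members, 8 of 15 were higher, or 53.3%, which is near the 55.0% of all listed genes. Their median log2 fold was 1.07, beside 1.05 over all listed genes. In K562, 8 were listed and all were lower, 7 without MUC4, beside 61.8% of all listed genes. The lists leave out CLDN22, a claudin that was higher in K562. The lists were drawn up with earlier results of these tables known, and this comparison has no test.

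**Figure D3:**
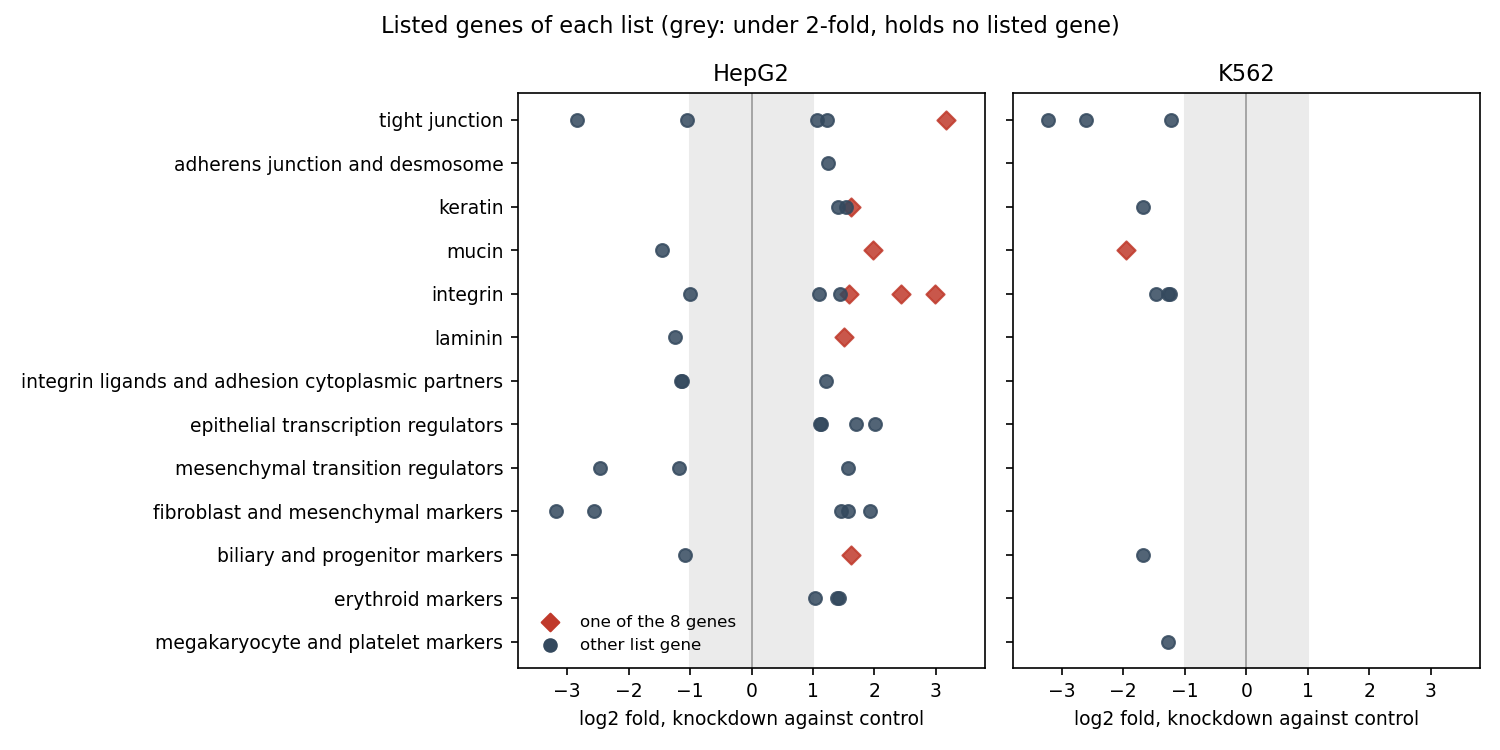
Log2 fold of knockdown against control (horizontal axis) for each listed gene of each gene list (rows), in HepG2 (left) and K562 (right), with the 8 members as red diamonds and other genes as dark circles; the grey band is the range under 2-fold, which the tables do not hold. The members form the right-hand end of the tight-junction, mucin and integrin rows in HepG2, and the listed genes in K562 lie to the left.

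Integrin ligands and the proteins that bind integrin tails gave few listed genes in HepG2 and none in K562. Of 34, 3 were listed in HepG2. CYR61, a secreted matrix protein bound by integrins, was 2.33-fold higher, at 1319 against 566. NPNT, the integrin ligand nephronectin, averaged 164 against 358, and TNS1, a tensin that links integrins to actin, averaged 15.0 against 34.5. FN1, VTN, TLN1 and FERMT1 were unlisted.

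Of 17 transcription factors that act in epithelia, 4 were listed in HepG2 and none in K562. All 4 were higher, beside 55.0% of all listed genes in HepG2, and 2 of them by 3-fold or more. The list was drawn up with earlier results of these tables known. KLF4 averaged 49.8 in the knockdown against 11.6 and was 4.03-fold higher. KLF5, a factor of proliferating epithelia, averaged 1175 against 363 and was 3.23-fold higher. The ETS-family factors ELF3 and EHF were 2.20-fold and 2.17-fold higher. Of 10 regulators and markers of mesenchymal transition, 3 were listed: FOSL1, a subunit of AP-1, was 2.96-fold higher, SNAI1, a repressor of CDH1, averaged 8.17 against 19.7, and TCF4 averaged 2.50 against 18.3. Neither of the 2 lower genes remained when the larger average had to reach the lower quartile of the table. ZEB1, ZEB2 and VIM were unlisted.

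Markers of other cell types moved beside the members in HepG2. Of 18 fibroblast and mesenchymal markers, 5 were listed, 3 higher and 2 lower: COL5A2, DCN and LUM were 3.82-fold, 2.95-fold and 2.73-fold higher, and TAGLN and COL3A1 were 5.92-fold and 9.12-fold lower. Of 10 biliary and progenitor markers, 2 were listed, 1 higher (KRT19) and 1 lower, and SOX9, KRT7 and EPCAM were among the 8 unlisted. Of 17 erythroid markers, HBM, HBA2 and HBZ were listed and were 2.67-fold, 2.63-fold and 2.04-fold higher. Among all listed genes in HepG2, 55.0% were higher. None of 22 hepatocyte markers was listed in either table, so the labelled identity of HepG2 could not be checked against them. Of 12 megakaryocyte and platelet markers, ITGA2B was listed, in K562. The part of other cell types in the values of the members was not tested.

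Genes nearest to a member in both averages were found by the distance between points at log2(knockdown average + 1) and log2(control average + 1), over the symbols of the same table, 945 in HepG2 and 445 in K562 besides the member. For CLDN1 the 3 nearest were BIRC3 (867.9 against 120; distance 0.25), GDF15 (871 against 78.2; 0.57) and TNFAIP2 (1269 against 162; 0.60). For ITGB8 they were DUSP4 (169.8 against 21; 0.34), NHS (109 against 15.1; 0.45) and ERRFI1 (162 against 23.8; 0.45). For MUC4 in K562 they were LOC80054 (20.5 against 72.5; 0.18), C18ORF45 (21 against 64.2; 0.27) and EPB49 (19.8 against 60; 0.30). Nearness describes the listed averages, whose meaning per length of transcript is not stated.

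The folds of the members depend on how the knockdown and control averages were scaled, which is not stated. With the knockdown averages divided by 1.5, 6 of 7 members in HepG2 stayed past 2-fold, and LAMB3 did not, at a log2 fold of 0.93. With a division by 3, chosen after seeing the data, CLDN1 and ITGB8 stayed past 2-fold, at 1.58 and 1.41, and LAMB3 turned to -0.066. MUC4 in K562 stayed past 2-fold when its knockdown average was multiplied by 1.5, at -1.39, and not when it was multiplied by 3, at -0.42.

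**Figure D4:**
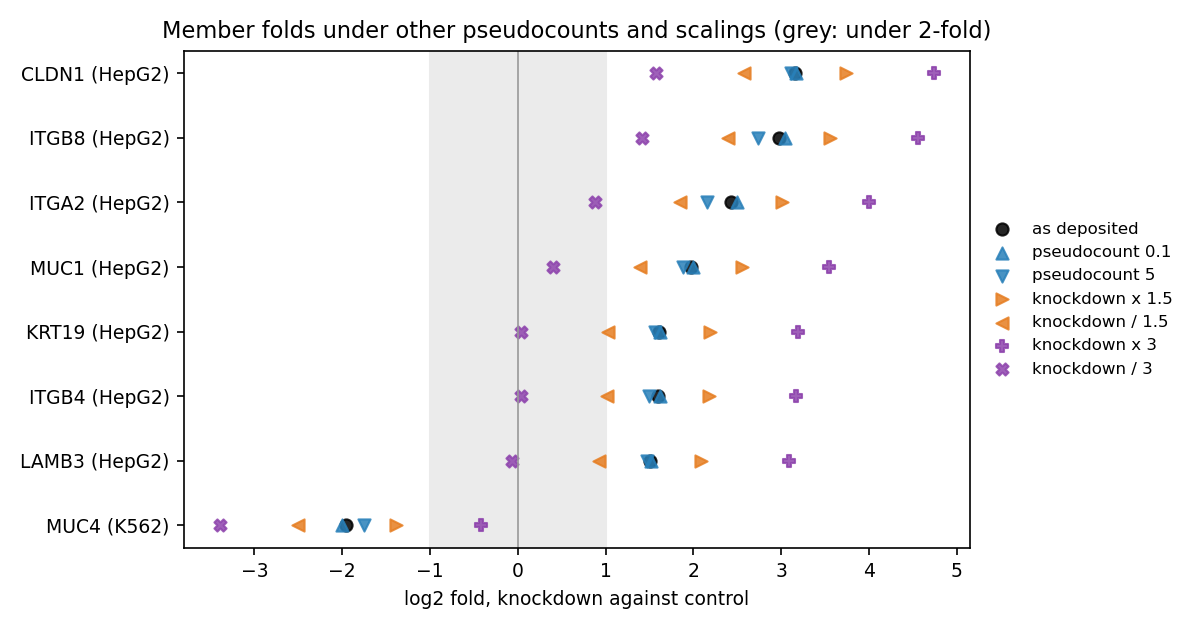
Log2 fold of knockdown against control (horizontal axis) of each listed member (rows) as deposited (black), with pseudocounts of 0.1 and 5 (blue), and with the knockdown averages multiplied or divided by 1.5 (orange) or by 3 (purple); the grey band is the range under 2-fold. The pseudocount moves ITGA2 the most among the genes of HepG2, to 2.16 at a pseudocount of 5, and a division by 3 puts 5 of the 7 genes in the band.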

How the data were processed

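RNA from HepG2 and K562 cells was read as paired ends of 76 bases with 2 technical replicates per sample, per the labels. TopHat, SAMtools and hg19 are named in the submitters' processing notes. The counting tool, annotation, strand and scaling are not given in the labels or headers used here. Per the file headers, each table gives the authors' averages for knockdown and control, treated as a signal because no unit is named. The deposited log2 fold was that of the ratio of both averages plus 1. The deposited signed fold, negative for a lower knockdown, was read as a score. The averages are the authors' own over an unstated set of values: CLDN1 became whole when multiplied by 8, ITGA2 by 40 and MUC4 by 2, within 1e-06. With a multiplier of at most 40 shared by both averages, 98.8% of HepG2 rows and 99.7% of K562 rows became whole. Whether the folds carry a difference in depth between knockdown and control was not tested. Depth, and so the precision, is unknown.

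Folds were recomputed with the pseudocount of 1, and of rows sharing a symbol the highest in mean average was kept, so that 1413 HepG2 rows gave 1409 genes and 945 K562 rows gave 942. No test was possible with 1 sample per group. The 8 members and the 15 gene lists, of 298 symbols, were chosen with earlier results of these data known. Named genes were the members, ADAR, listed list genes, unlisted list genes as examples, and the 3 nearest symbols to CLDN1, ITGB8 and MUC4. A row with no symbol was matched to a list gene by identifier, which added CLDN23. Some genes that the rule takes are left unnamed. Overlaps came from GENCODE release 29 by identifier. Alternatives were other pseudocounts, scalings, thresholds and row filters. Fold code was run on simulated tables built with the same formula, so recovery of the set folds was fixed by construction. Python 3.11.15, numpy 2.4.6, pandas 2.3.3 and matplotlib 3.10.9 were used.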

Additional observations from a re-analysis of the deposited data

Results flagged for a closer look

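ITGA6, the integrin chain that pairs with the ITGB4 product, was the single gene of the lists with a row in both tables, and it went in opposite directions. Its log2 fold was 1.10 in HepG2 (80.3 in the knockdown against 37) and -1.47 in K562 (6.75 against 20.5). With 1 sample per group, the difference between the lines was not tested. TSPAN9, a tetraspanin outside the lists that was picked with its values known, also went in opposite directions, with a log2 fold of 1.32 in HepG2 (20.2 against 7.50) and -1.10 in K562 (9.50 against 21.5), likewise not tested.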

How the results depend on the processing

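At 4-fold in place of 2-fold, 3 members were higher in HepG2 and 0 were lower in K562. At 3-fold, genes of all lists together fell from 26 to 9 higher and from 12 to 4 lower in HepG2, and from 8 to 4 lower in K562; a stricter threshold keeps fewer genes by construction. The rank of MUC4 among lower genes of K562 went from 61 to 24 among rows with a symbol and to 15 among rows whose larger average reached the median, where fewer genes are ranked. The same median filter moved ranks among higher genes of HepG2 from 226 to 133 for KRT19, 134 to 81 for MUC1, 234 to 138 for ITGB4 and 274 to 158 for LAMB3. LAMB3 turned to a log2 fold of -0.066 with knockdown averages divided by 3. Both pseudocounts kept all 8 member folds past 2-fold in the same direction. Division by 1.5 took 1 of 8 member folds under 2-fold, and multiplication by 1.5 took none. Technical replicates could not be left out in turn, since the tables hold averages. No paired analysis was possible because each group has 1 sample and the result comes from no test. Unknown depth limits how far low averages can be read.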

Other observations

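Other surface genes of epithelial or adhesive cells, picked after their values were seen, were listed in HepG2. EPHA2, a receptor tyrosine kinase at cell contacts, averaged 842 in the knockdown against 227 and was 3.70-fold higher, and its ligand gene EFNA1 averaged 351 against 128 and was 2.72-fold higher. S100A14, a calcium-binding protein of epithelia, averaged 21.2 against 6. The 3 listed protocadherin beta genes, PCDHB15, PCDHB12 and PCDHB14, were 3.20-fold, 2.37-fold and 2.05-fold higher; reads from these similar genes may have been mixed. Of the 5 listed tetraspanins, TSPAN10, TSPAN9 and TSPAN8 were 2.80-fold, 2.50-fold and 2.25-fold higher, and TSPAN3 and TSPAN12 were 2.37-fold and 2.78-fold lower. CDH12, a cadherin of the nervous system, averaged 1.60 against 20.1. In K562, rows for KRT18P28 and KRT18P17, pseudogenes of a simple-epithelial keratin, were 2.93-fold and 2.40-fold higher, while KRT18 was unlisted.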
